A study of Homo sapiens with 29 samples.

Results

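The genes described here belong to the PERK arm of the unfolded protein response, to the target genes of the transcription factor ATF4, and to amino acid supply. They were chosen by name, as 41 listed symbols whose Ensembl entry had to average at least 1 CPM, a count scaled to its library's total, over the 29 libraries. Of the 41, 40 met the rule, out of 66025 entries in the table, and all 40 also passed the filter on low counts that left 21259 genes for testing. The 1 symbol left out, NUPR1, averaged 0.241 CPM. The rule itself uses no difference between groups.

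The series asked how human β cells respond to carboxyl ester lipase (CEL), a digestive enzyme that pancreatic acinar cells secrete and that is mutated in an inherited form of diabetes. EndoC-βH1 cells, an insulin-producing line of human β cells, were kept for 10 days in culture medium that HEK293 cells, a human embryonic kidney line, had conditioned for 3 hours. The 10 MUT libraries came from cells in medium of HEK293 cells that stably overexpressed mutant CEL, the 10 WT libraries from medium of cells with wild-type CEL, and the 9 EV libraries from medium of cells with the empty vector. In all groups the medium was filtered, brought to equal protein and renewed every day, so all cells received material from HEK293 cells, and the EV libraries are not from cells in fresh medium. The mutation carried by MUT CEL is not given in the sources used here. The labels place the libraries in 3 batches. Batch 1 held 4 MUT, 4 WT and 3 EV libraries, and batches 2 and 3 held 3 of each. EV library 2 of batch 1 has a label whose sample number breaks the sequence of the others, and it was used as labelled.

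Polyadenylated RNA was sequenced, and the library totals ran from 26.2 M to 40.2 M estimated counts. All 10 β-cell markers examined, among them INS, PDX1 and MAFA, had a median of at least 1 CPM. Of 10 genes listed as HEK293 markers 5 had a median under 0.1 CPM. For 3 it was at least 1 CPM, namely LIN28B (13.5 CPM), PAX8 (7.91 CPM) and SALL4 (1.13 CPM). Of 5 acinar genes 4 had a median under 0.1 CPM, with AMY2A and PNLIP at 0 in all 29 libraries, while CPA1 had a median of 31.2 CPM. Whether the libraries that share a batch and a medium are separate cultures is not in the labels, so the spread behind the p-values below is that between libraries and may be technical. Within a batch the libraries of a medium form 1 set, and an effect of the medium and a difference between sets cannot be told apart there. In bulk RNA, fewer cells that express a gene and less of its RNA per cell cannot be told apart either.

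PERK, the product of EIF2AK3, is a kinase in the membrane of the endoplasmic reticulum that is activated when unfolded proteins build up there. It phosphorylates the translation factor eIF2α, which lowers protein synthesis in general and favours translation of the ATF4 messenger, and other kinases that sense amino acid shortage, heme shortage or viral RNA act on the same factor. ATF4 raises transcription of genes for amino acid transporters, amino acid synthesis, tRNA charging and feedback control, and β cells, which make large amounts of proinsulin, depend on PERK. ATF4 is controlled to a large extent at translation, which messenger levels do not show.

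ATF4 binds DNA as a partner of C/EBP proteins at sites that read TGATGNAA, where N is any base. The sites below are shown because they lie before the start of genes whose levels are described later. The letters TGATGNAA were searched on both strands, the opposite strand reading TTNCATCA, in promoter windows from RefSeq (GRCh38.p14) that run from 250 bases before to 50 bases after each annotated start. Of the 40 genes 35 had a window, and 12 of the 35 (34.3%) held the motif, against 4.46% of 27305 genes with a window. The narrower form TGATGCAA was found in 7 of the 35 (20%) and in 1.08% of all genes. A gene counted if any of its windows matched, and there were 35116 windows for the 27305 genes. The 40 genes were picked by name as genes of the ATF4 pathway. A share above that of all genes was thus likely beforehand and is not evidence about these data. Each line gives 40 bases in the direction of the gene, with the motif, or its reverse complement, in capitals.

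ASNS: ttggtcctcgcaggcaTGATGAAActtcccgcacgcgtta

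CHAC1: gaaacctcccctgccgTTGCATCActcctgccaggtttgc

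CEBPG: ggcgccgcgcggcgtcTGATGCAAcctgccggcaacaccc

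AARS1: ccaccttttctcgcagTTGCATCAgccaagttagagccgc

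PPP1R15B: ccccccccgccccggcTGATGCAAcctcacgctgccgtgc

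ATF3: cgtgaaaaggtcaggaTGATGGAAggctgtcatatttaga

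The ASNS window is chr7:97872453-97872492 on the minus strand, and its motif begins 68 bases before the start. The CHAC1 window is chr15:40953246-40953285 on the plus strand, with the motif on the opposite strand 209 bases before the start. The CEBPG window is chr19:33374055-33374094 (plus strand, 42 bases before), and that of AARS1 is chr16:70289670-70289709 (minus strand, motif on the opposite strand, 187 bases before). The PPP1R15B window is chr1:204412021-204412060 (minus strand, 227 bases before), and that of ATF3 is chr1:212565200-212565239 (plus strand, 191 bases before). The other genes with the motif were GARS1, MTHFD1L, SLC1A4, SLC1A5, SLC3A2 and SLC7A1. A match is a description of the letters in these windows and does not show that ATF4 binds there.

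Over all batches, few of the 40 genes differed between the media. In the model of all 29 libraries with batch as a term, 3 of the 40 passed for MUT vs EV, all higher in MUT, where 5.2% of all genes passed and 2.95% passed as higher (edgeR quasi-likelihood test, Benjamini-Hochberg adjusted p under 0.05 over 21259 genes). They were EIF2AK3, ASNS and the transporter gene SLC43A1. For WT vs EV 2 passed, SLC43A1 and the cystine transporter gene SLC7A11, both higher in WT, where 0.315% of all genes passed and 0.169% as higher. For MUT vs WT 0 passed with edgeR, 10 had an unadjusted p under 0.05 and DESeq2 called 1, the secreted stress factor gene STC2 (log2 fold change -0.30, adjusted p = 0.037), while 0.884% of all genes passed. At an unadjusted p under 0.05 the MUT vs EV comparison held 10 genes and the WT vs EV comparison 15. The share of all genes at that unadjusted threshold was not counted. Unadjusted counts, here and later, thus cannot tell the listed genes from other genes. Over the 40 genes the median log2 fold change of MUT over EV was 0.034, that of MUT over WT -0.022 and that of WT over EV 0.075, beside medians of 0.000067, 0.0044 and -0.0011 over all genes. Without batch 2 none of the edgeR calls was left, with 0 of the 40 genes in each of the 3 comparisons. Of all genes 0 passed there between MUT and EV, 305 between MUT and WT and 51 between WT and EV. The DESeq2 call of STC2 was not examined without batch 2. At an unadjusted p under 0.05, 4 genes were then left between MUT and EV, 10 between MUT and WT and also 10 between WT and EV.

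**Figure D1:**
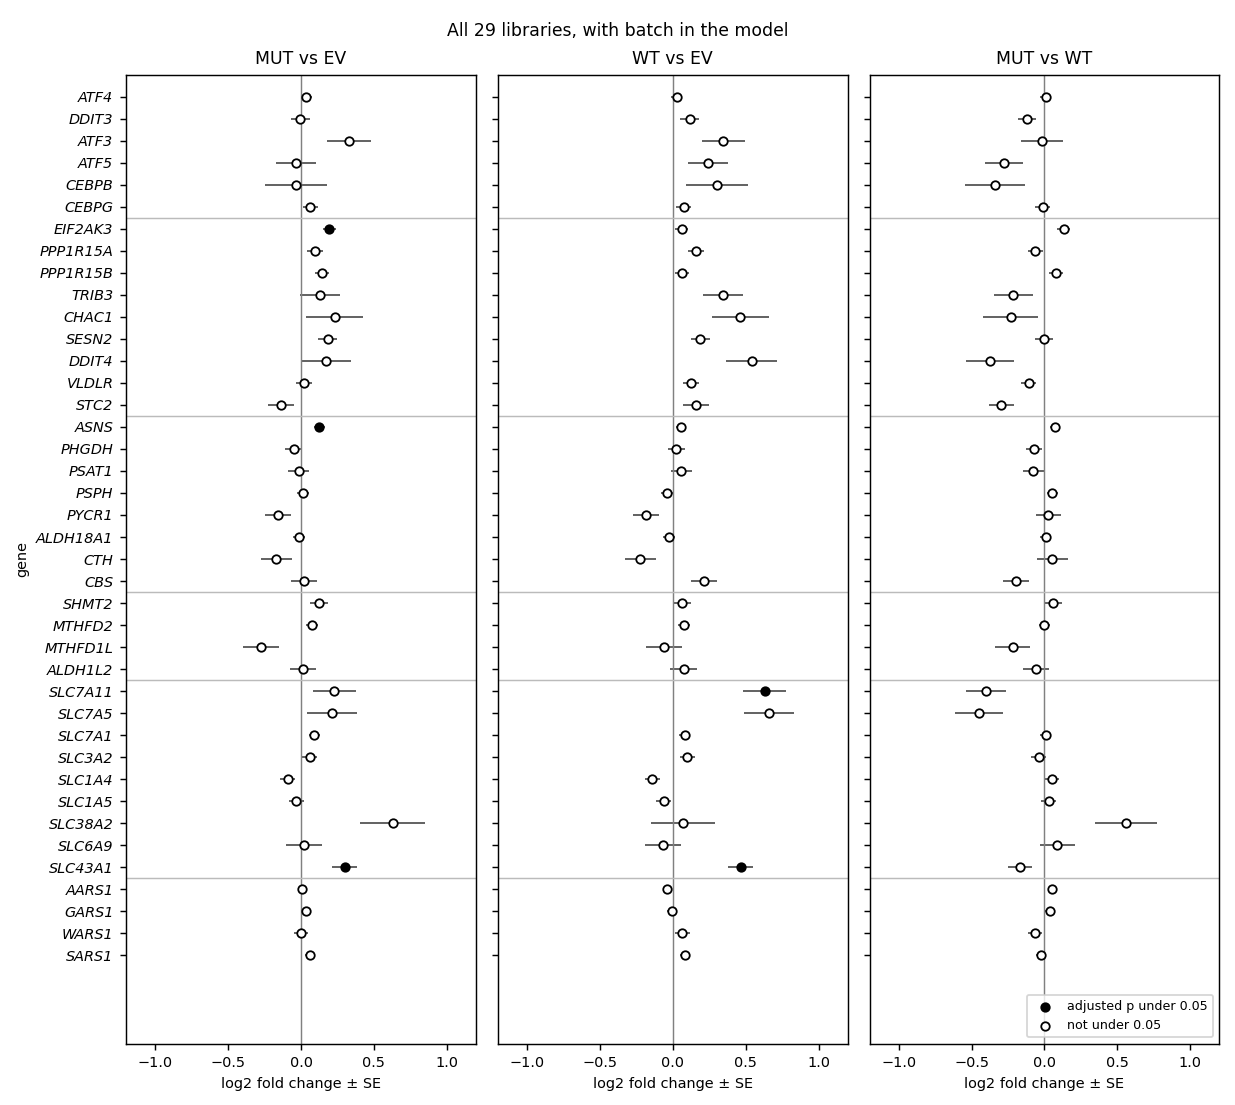
Log2 fold change ± SE of the 40 genes in the model of all 29 libraries with a batch term, for MUT vs EV, WT vs EV and MUT vs WT; filled points have an adjusted p under 0.05 and grey lines separate the groups of genes. Filled points are EIF2AK3, ASNS and SLC43A1 for MUT vs EV and SLC7A11 and SLC43A1 for WT vs EV, and the widest bars belong to SLC38A2 and CEBPB.

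Batch 2 carried most of the differences. Fitted alone, it gave 30 of the 40 genes for MUT vs EV, 21 higher and 9 lower, beside 47.8% of all genes (24.1% higher and 23.8% lower). For WT vs EV it gave 33, with 28 higher and 5 lower, beside 38.9% of all genes (19.6% higher and 19.3% lower). For MUT vs WT it gave 26, with 2 higher and 24 lower, beside 33.1% of all genes (16.8% higher and 16.4% lower). In batch 2 the median log2 fold change of the 40 was 0.16 (MUT over EV), -0.30 (MUT over WT) and 0.31 (WT over EV), where the medians of all genes were -0.0013, 0.0085 and -0.0068. The libraries of the media compared did not overlap in batch 2 for 30 of the 40 genes between MUT and EV (54.2% of all genes), 29 between MUT and WT (46.6%) and 34 between WT and EV (49.9%).

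The other batches fitted alone called 0 of the 40 genes in each comparison with edgeR. In batch 1, 1.4% of all genes passed between MUT and EV, 0.277% between MUT and WT and 0.0143% between WT and EV, while 5, 7 and 11 of the 40 had an unadjusted p under 0.05. DESeq2 on that batch called 3, 3 and 0 of the 40, beside 1932, 877 and 143 of all genes. In batch 3, 0.049%, 1.22% and 0.00981% of all genes passed, and 4, 6 and 4 of the 40 had an unadjusted p under 0.05. DESeq2 there called 0, 1 and 0 of the 40, beside 322, 818 and 30 of all genes. The difference between batches was tested itself. The MUT vs EV difference varied between batches for 24 of the 40 genes, beside 44% of all genes, the MUT vs WT difference for 24 beside 28.4%, and the WT vs EV difference for 29 beside 24.1% (F test of edgeR's quasi-likelihood fit, Benjamini-Hochberg adjusted p under 0.05). Between batches 1 and 3 only, the MUT vs EV difference varied for 2 of the 40 genes, CEBPG and PPP1R15B, beside 13.3% of all genes, and 8 had an unadjusted p under 0.05. In the other comparisons 0 of the 40 passed with edgeR, where 9 (MUT vs WT) and 3 (WT vs EV) had an unadjusted p under 0.05 and 3.28% and 0% of all genes passed. The direction was the same in all 3 batches for 5 of the 40 genes for MUT vs EV, where it was the same for 18.4% of all genes, for 10 for MUT vs WT (20.8% of all genes), and for 13 for WT vs EV (23.5%).

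The order of the media also differed by batch. In batch 2 the mean level ran from WT over MUT to EV, high to low, for 20 of the 40 genes, an order that 3 genes had in batch 1 and 6 in batch 3. In batch 1 the most frequent order was EV highest and WT lowest (13 genes), and in batch 3 it was MUT highest and WT lowest (12 genes). The orders were not counted over all genes, so these counts cannot tell the 40 genes from other genes.

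**Figure D2:**
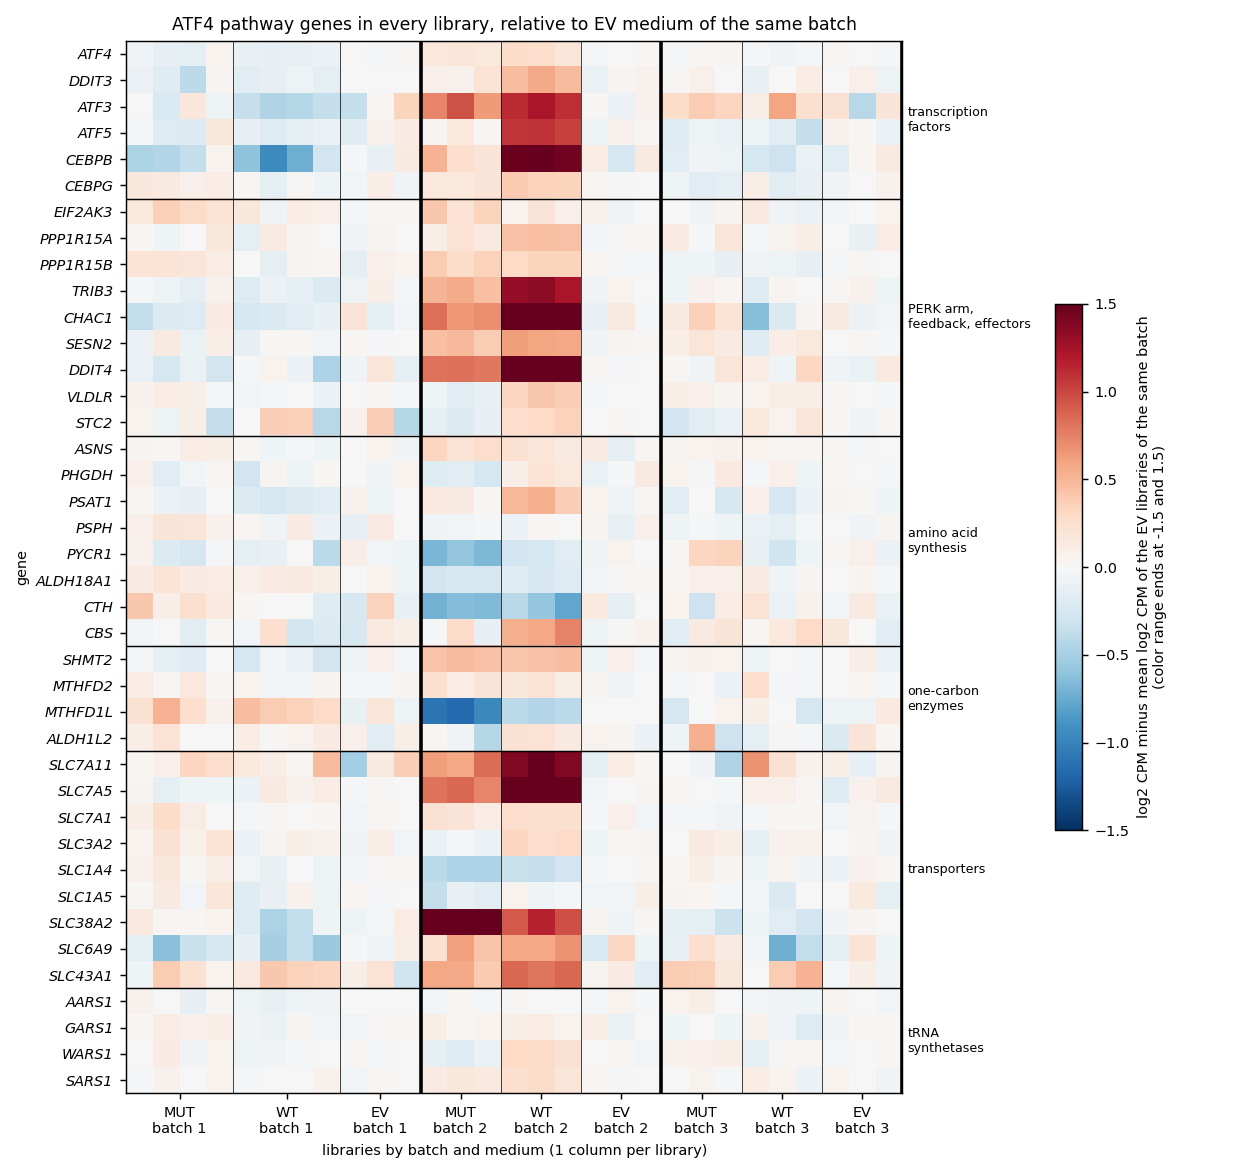
Log2 CPM of the 40 genes (rows, by group) in every library (columns, by batch and medium), minus the mean log2 CPM of the EV libraries of the same batch; red is higher and blue lower than EV medium. The strongest red lies in the WT columns of batch 2, at CEBPB, CHAC1, DDIT4, SLC7A11 and SLC7A5, while SLC38A2 is darkest in the MUT columns of that batch and PYCR1, CTH and MTHFD1L are blue there.

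Other measures also varied between the sets of libraries. In batch 2 the share of counts on mitochondrial genes was 5.07% ± 0.30 (SD, n = 3) in MUT, 4.01% ± 0.034 (n = 3) in WT and 5.03% ± 0.23 (n = 3) in EV libraries. The summed level of the 10 β-cell markers came mostly from INS and CHGA. It ran from 19159 to 20305 CPM in MUT, from 23903 to 24876 CPM in WT and from 23389 to 25584 CPM in EV libraries. The summed level of 5 fibroblast markers, mostly COL1A1, was 5.67 to 6.28 CPM in MUT, 5.21 to 6.49 CPM in WT and 1.95 to 2.49 CPM in EV libraries, with LUM at 0 in 28 of 29 libraries. The HEK293 list summed to 17.5 to 18.8 CPM in MUT, 18.2 to 21.3 CPM in WT and 23.2 to 23.8 CPM in EV libraries, mostly from LIN28B and PAX8. The acinar list, almost all of it CPA1, summed to 21.3 to 23.3 CPM in MUT, 21.4 to 22.6 CPM in WT and 25.0 to 28.4 CPM in EV libraries. Values of some of these measures in batches 1 and 3 are given next. The fibroblast markers of batch 1 summed to 1.90 to 3.12 CPM in MUT, 2.34 to 2.98 CPM in WT and 3.12 to 3.87 CPM in EV libraries. Those of batch 3 summed to 4.94 to 5.93 CPM in MUT, 4.82 to 5.06 CPM in WT and 4.62 to 5.13 CPM in EV libraries. In batch 1 the mitochondrial share was 6.20% ± 0.31 (n = 4) in MUT, 7.21% ± 0.28 (n = 4) in WT and 7.69% ± 0.60 (n = 3) in EV libraries. In batch 3 the β-cell markers summed to 26087 to 29835 CPM in MUT, 22021 to 28579 CPM in WT and 22855 to 24415 CPM in EV libraries. The part of these measures in the results was not tested.

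Among the transcription factors, the 6 measured genes were all higher in WT than in EV libraries of batch 2 (19.6% of all genes), and 4 of them were higher in MUT than in EV libraries (24.1%). Between MUT and WT libraries of that batch 5 of the 6 were lower in MUT (16.4% of all genes), and ATF4 did not pass. Pooled over batches, 0 of the 6 passed with edgeR in any comparison, and DESeq2 called none of them either.

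ATF4 itself (chr22:39519695-39522685 in GENCODE release 29, GRCh38, as for the other genes) had 146, 149 and 146 CPM in the MUT libraries of batch 2, 159, 157 and 149 CPM in the WT libraries and 129, 130 and 133 CPM in the EV libraries. Both CEL media lay above EV in that batch without overlap, and the highest MUT library and the lowest WT library were at the same level. In batch 2 it had a log2 fold change of 0.17 ± 0.04 (SE) for MUT vs EV (adjusted p = 0.0014) and 0.24 ± 0.04 for WT vs EV (adjusted p = 8.3e-05). In batch 1 ATF4 had 129, 123, 122 and 139 CPM in MUT, 123, 122, 123 and 126 CPM in WT and 133, 132 and 135 CPM in EV libraries, where all WT libraries lay below the EV libraries. In batch 3 it had 134, 138 and 140 CPM in MUT, 134, 132 and 134 CPM in WT and 139, 136 and 133 CPM in EV libraries, which overlapped. The WT vs EV difference of ATF4 varied between batches (adjusted p = 4.3e-05).

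DDIT3 encodes CHOP, a factor downstream of ATF4 that promotes cell death under lasting stress. In batch 2 it had 20.1, 19.8 and 22.0 CPM in MUT libraries, 26.2, 28.1 and 26.4 CPM in WT libraries and 17.7, 19.5 and 19.9 CPM in EV libraries. Only the WT libraries stood apart. DDIT3 was higher in WT than in EV (log2 fold change 0.50 ± 0.06, adjusted p = 6.4e-06) and lower in MUT than in WT (-0.38 ± 0.06, adjusted p = 0.00016), while MUT vs EV did not pass (0.12 ± 0.06, adjusted p = 0.13). Batch 1 gave 21.7, 20.4, 17.6 and 23.9 CPM in MUT, 20.8, 21.3, 21.9 and 20.8 CPM in WT and 23.2, 23.1 and 23.1 CPM in EV libraries, and batch 3 gave 23.3, 24.3 and 23.0 CPM, 21.2, 22.9 and 24.9 CPM, and 22.9, 24.2 and 21.9 CPM in the same order of media. The batch 1 EV libraries lay above all WT libraries, and in batch 3 the media overlapped.

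CEBPB, ATF5 and ATF3 showed the larger differences of this group. CEBPB, a partner of ATF4 on DNA, had 11.1, 9.25 and 8.92 CPM in MUT, 21.5, 23.8 and 21.2 CPM in WT and 8.42, 6.55 and 8.52 CPM in EV libraries of batch 2, and between 1.92 and 4.11 CPM in all 20 libraries of the other batches. The EV libraries of batch 2 thus already lay above every library of batches 1 and 3, with a log2 difference of EV in batch 2 over EV in batch 1 of 1.07 ± 0.14 (SE). The WT vs EV log2 fold change of CEBPB was 1.50 ± 0.10 in batch 2 (adjusted p = 2.7e-08), against -0.62 in batch 1 and -0.22 in batch 3. ATF5, a factor made under mitochondrial and proteotoxic stress, had 155, 168 and 154 CPM in MUT, 319, 321 and 307 CPM in WT and 144, 158 and 153 CPM in EV libraries of batch 2. The ATF5 levels of MUT and EV overlapped and those of WT lay far above both, with a log2 fold change of -0.98 ± 0.04 for MUT vs WT (adjusted p = 6.1e-11) and 1.06 ± 0.04 for WT vs EV (adjusted p = 1.1e-11). ATF3, an early stress-response factor, had 5.42, 6.36 and 5.08 CPM in MUT, 7.12, 7.64 and 7.03 CPM in WT and 3.32, 3.07 and 3.42 CPM in EV libraries of batch 2, and 1.35 to 2.95 CPM elsewhere. CEBPG, another binding partner, had 97.2, 97.2 and 99.2 CPM in MUT, 114, 110 and 109 CPM in WT and 88.4, 84.7 and 87.2 CPM in EV libraries of batch 2, and no media overlapped. In batch 3 its MUT libraries lay below those of EV, and in batch 1 they lay above those of WT.

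In the group of PERK, its feedback genes and stress effectors, 8 of 9 genes were higher in WT than in EV libraries of batch 2 (19.6% of all genes). In that batch 7 of 9 were higher in MUT than in EV (24.1% of all genes), with VLDLR lower. For MUT vs WT 7 of the 9 were lower in MUT (16.4% of all genes) and EIF2AK3 was higher. Pooled over batches EIF2AK3 was the 1 gene of this group that passed, for MUT vs EV.

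EIF2AK3 (chr2:88556741-88627576) had 33.7, 29.6 and 32.1 CPM in MUT, 26.5, 29.2 and 27.0 CPM in WT and 26.6, 24.6 and 25.4 CPM in EV libraries of batch 2. All MUT libraries lay above those of the other media, and WT and EV overlapped. In batch 1 it had 26.1, 29.9, 28.6 and 27.2 CPM in MUT, 26.5, 22.4, 25.2 and 24.7 CPM in WT and 23.0, 23.6 and 23.7 CPM in EV libraries, where MUT again lay above EV. In batch 3 it had 30.9, 29.9 and 31.9 CPM in MUT, 34.4, 29.9 and 29.0 CPM in WT and 30.0, 30.8 and 32.2 CPM in EV libraries, with overlap of all media. The pooled log2 fold change of MUT vs EV was 0.19 ± 0.05 (adjusted p = 0.026), the values of batches 1, 2 and 3 alone were 0.24, 0.32 and -0.0048, and they differed between batches (adjusted p = 0.012). The call was lost on leaving out any single MUT or EV library of batch 2 (adjusted p 0.05 to 0.079), without batch 1 (0.11) and without batch 2 (0.47).

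TRIB3, a pseudokinase that ATF4 and CHOP raise and that restrains them, had 98.0, 101 and 94.3 CPM in MUT, 172, 175 and 161 CPM in WT and 66.6, 71.5 and 69.2 CPM in EV libraries of batch 2. The media formed separate levels, with log2 fold changes of 0.51 ± 0.05 for MUT vs EV (adjusted p = 9.7e-08), -0.78 ± 0.04 between MUT and WT (adjusted p = 7.9e-10) and 1.29 ± 0.05 for WT vs EV (adjusted p = 1.1e-12). In batch 1 TRIB3 (chr20:362835-397559) had 73.7, 71.3, 68.1 and 78.5 CPM in MUT, 65.7, 70.6, 68.4 and 65.2 CPM in WT and 71.4, 80.0 and 74.2 CPM in EV libraries. In batch 3 it had 81.4, 89.0 and 87.1 CPM in MUT, 75.0, 87.4 and 84.9 CPM in WT and 86.1, 89.2 and 80.5 CPM in EV libraries. Outside batch 2 its highest library was thus at 89.2 CPM, and the WT libraries of batch 1 lay below the EV libraries.

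CHAC1, which degrades glutathione, had 6.67, 5.94 and 6.12 CPM in MUT, 13.2, 11.6 and 11.8 CPM in WT and 3.50, 4.15 and 3.70 CPM in EV libraries of batch 2. The order was the same as for TRIB3, again without overlap, and the log2 fold changes of CHAC1 were 0.73 ± 0.10 against EV and -0.96 ± 0.09 against WT for MUT, and 1.69 ± 0.09 for WT vs EV (adjusted p = 9.1e-06, 3.5e-07 and 4.4e-10). In batch 1 it had 2.80, 3.12, 3.15 and 3.92 CPM in MUT, 3.00, 3.09, 3.19 and 3.33 CPM in WT and 4.12, 3.25 and 3.50 CPM in EV libraries. In batch 3 it had 3.68, 4.30 and 3.88 CPM in MUT, 2.15, 2.90 and 3.46 CPM in WT and 3.68, 3.16 and 3.25 CPM in EV libraries, where MUT lay above WT. The log2 fold change of MUT vs WT was 0.47 in batch 3, opposite in sign to batch 2, and the batches differed for it (adjusted p = 8.2e-07).

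DDIT4 and SESN2, which both lower mTORC1 signalling, moved the same way in batch 2. DDIT4 had 19.6, 19.6 and 19.3 CPM in MUT, 35.5, 37.9 and 34.6 CPM in WT and 11.2, 11.0 and 11.1 CPM in EV libraries, with a WT vs EV log2 fold change of 1.69 ± 0.06 (adjusted p = 4.8e-13). Its EV level was 20.8 to 25.8 CPM in batch 1 and 6.34 to 7.57 CPM in batch 3, so the MUT level of batch 2 lay below EV medium of batch 1. SESN2 had 36.7, 37.4 and 34.8 CPM in MUT, 41.3, 40.4 and 40.0 CPM in WT and 25.9, 27.5 and 27.1 CPM in EV libraries of batch 2, while its EV libraries of batch 1 had 40.7 to 42.3 CPM. Another entry of the table repeats the SESN2 values in full, so reads of SESN2 may be divided between the entries.

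The subunits that direct dephosphorylation of eIF2α close the loop of the pathway. PPP1R15B, the constitutive subunit, had 106, 99.1 and 103 CPM in MUT, 100, 103 and 103 CPM in WT and 83.3, 80.9 and 80.6 CPM in EV libraries of batch 2, so that MUT and WT overlapped above EV. In batch 1 its MUT libraries lay above those of WT and EV, while in batch 3 the MUT and WT libraries all lay below EV. PPP1R15A, the stress-induced subunit, had a WT vs EV log2 fold change of 0.44 ± 0.05 and a MUT vs EV one of 0.16 ± 0.05 in batch 2 (adjusted p = 2.4e-06 and 0.013). STC2, a secreted glycoprotein, was lower in MUT than in WT in batch 2 (-0.45 ± 0.07, adjusted p = 5.1e-05). Its log2 fold change of MUT over WT was -0.20 ± 0.22 in batch 1, where the libraries overlapped (adjusted p = 0.71), -0.32 ± 0.08 in batch 3 (adjusted p = 0.075) and -0.30 ± 0.09 pooled (adjusted p = 0.088), none of which passed. VLDLR, a lipoprotein receptor, was lower in MUT than in EV in batch 2 (-0.11 ± 0.04, adjusted p = 0.028) and higher in WT than in EV (0.36 ± 0.04, adjusted p = 1.3e-06). In batch 3 the MUT and WT libraries of VLDLR all lay above those of EV.

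**Figure D3:**
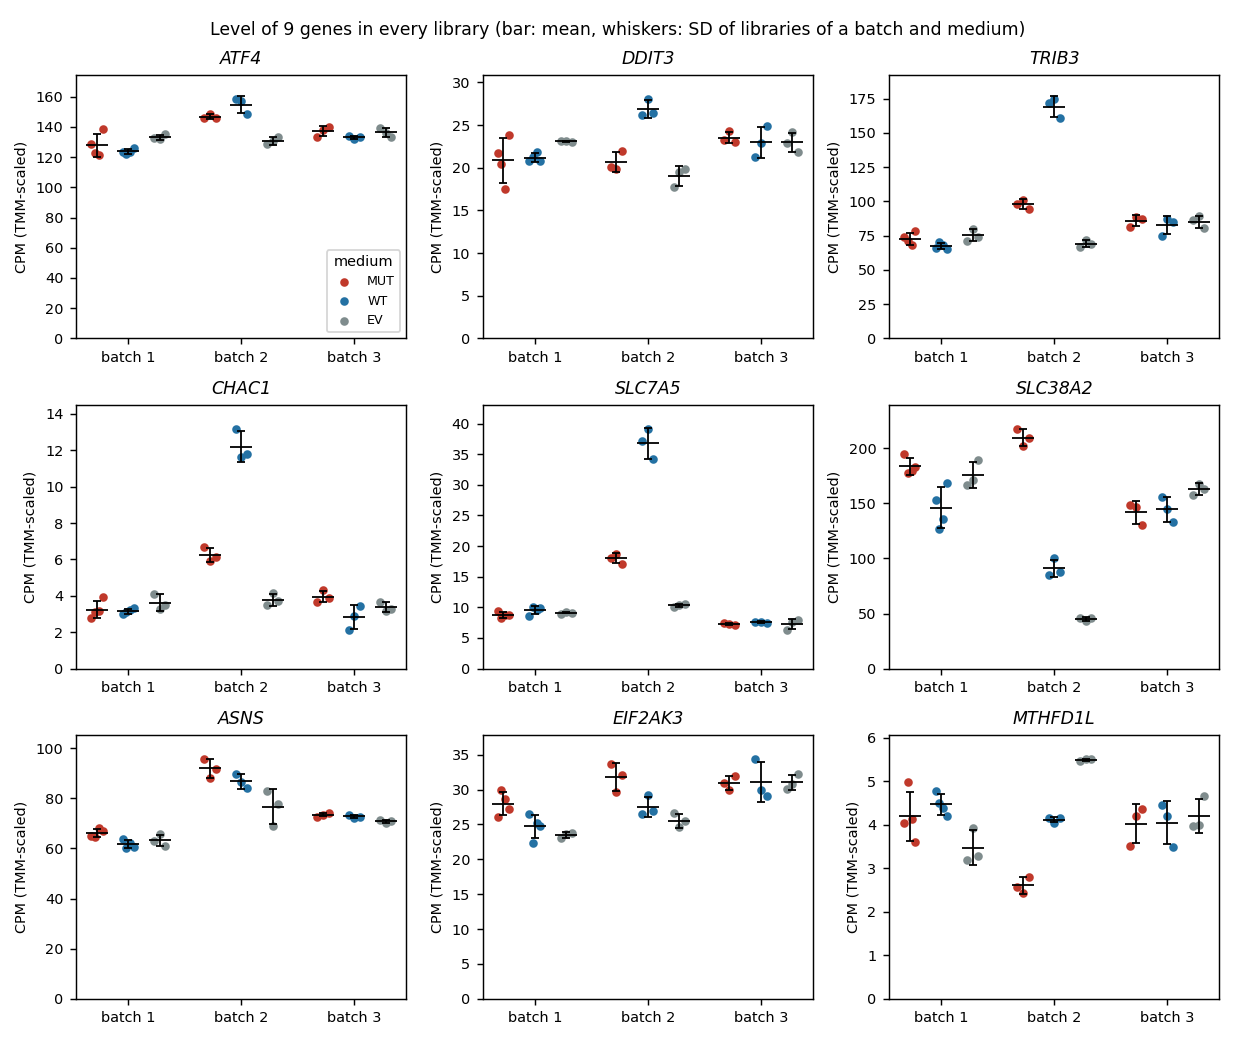
Level in CPM of 9 genes in every library, by batch and medium (points: libraries; horizontal bar: mean; whiskers: SD, n = 3 or 4). TRIB3, CHAC1 and SLC7A5 stand out in the WT libraries of batch 2 with MUT between WT and EV, and SLC38A2 is highest in MUT and lowest in EV in that batch. The media lie closer together for these genes in batches 1 and 3. For SLC38A2 the MUT libraries still lie above WT in batch 1, and both CEL media lie below EV in batch 3.

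The enzymes of amino acid synthesis did not move in 1 direction. In batch 2, 1 of the 8 was higher and 4 were lower in MUT than in EV (24.1% and 23.8% of all genes). There 3 of the 8 were higher and 3 lower in WT than in EV (19.6% and 19.3%), and 4 were lower in MUT than in WT (16.4%). Their median log2 fold change in batch 2 was -0.12 for MUT vs EV and 0.062 for WT vs EV.

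ASNS, asparagine synthetase (chr7:97852118-97872542), had 95.7, 88.3 and 91.8 CPM in MUT, 89.5, 86.6 and 83.9 CPM in WT and 83.0, 69.0 and 77.8 CPM in EV libraries of batch 2. The libraries of MUT and WT both lay above those of EV and overlapped each other. Batch 1 gave 65.1, 64.6, 68.0 and 67.1 CPM in MUT, 63.8, 60.2, 62.2 and 60.6 CPM in WT and 62.8, 65.7 and 61.1 CPM in EV libraries. Batch 3 gave 72.7, 73.5 and 73.9 CPM in MUT, 73.5, 72.3 and 72.5 CPM in WT and 71.4, 70.2 and 70.8 CPM in EV libraries, so that in batch 3 as well no CEL library lay below an EV library. The pooled log2 fold change of MUT vs EV was 0.13 ± 0.03 (adjusted p = 0.037), with 0.048, 0.27 and 0.052 in batches 1, 2 and 3 and a difference between batches (adjusted p = 0.02). The call was lost without batch 1 (adjusted p = 0.052), without batch 2 (0.60), and on leaving out any single MUT or EV library of batch 2, MUT library 2 or 3 of batch 1 or WT library 3 of batch 1 (0.05 to 0.11).

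Of the 4 enzymes that were lower in MUT than in EV, PYCR1 and ALDH18A1 serve proline synthesis, CTH cysteine synthesis and PHGDH serine synthesis. PYCR1, the last enzyme of proline synthesis, had 49.0, 52.5 and 49.5 CPM in MUT, 64.7, 65.8 and 70.3 CPM in WT and 76.0, 82.1 and 78.8 CPM in EV libraries of batch 2. It fell by 0.65 ± 0.05 on the log2 scale in MUT vs EV (adjusted p = 7.1e-09), and its media did not overlap. In batch 3 the PYCR1 level was 82.4, 102 and 102 CPM in MUT, 75.6, 66.5 and 78.0 CPM in WT and 82.5, 85.7 and 76.6 CPM in EV libraries, with a log2 fold change of 0.23 for MUT vs EV, and the batches differed (adjusted p = 1.5e-05). ALDH18A1, which starts proline synthesis from glutamate, had 66.5, 68.1 and 67.0 CPM in MUT, 70.8, 67.8 and 70.0 CPM in WT and 77.9, 81.0 and 82.0 CPM in EV libraries of batch 2. In batch 1 its MUT and WT libraries all lay above those of EV. CTH, which makes cysteine from cystathionine, had 2.71, 2.84 and 2.81 CPM in MUT, 3.33, 2.96 and 2.58 CPM in WT and 4.92, 4.00 and 4.44 CPM in EV libraries of batch 2, where only the EV libraries stood apart, and 2.12 to 3.47 CPM in batches 1 and 3.

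For serine synthesis, PHGDH, the first enzyme, was lower in MUT than in WT (-0.35 ± 0.07, adjusted p = 0.00099) and in EV (-0.20 ± 0.07, adjusted p = 0.025) in batch 2. PSAT1, the next enzyme, was higher in WT than in EV (0.47 ± 0.06, adjusted p = 1.1e-05) and lower in MUT than in WT (-0.36 ± 0.06, adjusted p = 0.00021), and PSPH, the last one, did not pass in any comparison of batch 2. In batch 1 the WT libraries of PSAT1 lay below those of MUT and EV. CBS, which makes cystathionine, was higher in WT than in EV in batch 2 (0.62 ± 0.09, adjusted p = 7.3e-05). CBS has a near-identical copy, CBSL, on chromosome 21, which averaged 12.8 CPM in its own entry, so the division of reads between them is uncertain.

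Of the mitochondrial one-carbon enzymes, which pass the carbon unit of serine to formate, SHMT2 and MTHFD2 were higher and MTHFD1L was lower in each CEL medium than in EV medium in batch 2. SHMT2, which splits serine, had 113, 117 and 113 CPM in MUT, 112, 114 and 115 CPM in WT and 79.9, 88.8 and 83.2 CPM in EV libraries. The libraries of MUT and WT overlapped above EV, with a log2 fold change of 0.45 ± 0.04 for MUT vs EV and 0.44 ± 0.04 for WT vs EV (adjusted p = 1.7e-07 and 3.9e-07). The SHMT2 level of EV medium in batch 1 was 104 to 115 CPM, close to that of the CEL media in batch 2. MTHFD2, a dehydrogenase of folate-bound carbon, had 46.7, 42.6 and 45.1 CPM in MUT, 44.5, 45.7 and 42.2 CPM in WT and 40.7, 38.2 and 39.5 CPM in EV libraries of batch 2.

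MTHFD1L, which releases formate, had 2.56, 2.44 and 2.81 CPM in MUT, 4.15, 4.04 and 4.15 CPM in WT and 5.46, 5.51 and 5.50 CPM in EV libraries of batch 2. The media formed separate levels with EV highest and MUT lowest, and MTHFD1L fell by 1.07 ± 0.10 on the log2 scale in MUT vs EV (adjusted p = 2.3e-07). In batch 1 MUT over EV had a log2 fold change of 0.25 and WT over EV one of 0.36, and the MUT vs EV difference varied between batches (adjusted p = 3.1e-07). ALDH1L2, a mitochondrial folate dehydrogenase, did not pass in any comparison of batch 2, with values of 2.81 to 3.85 CPM in MUT, 4.12 to 4.41 CPM in WT and 3.52 to 3.89 CPM in EV libraries.

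Among the 40 genes, the largest log2 fold changes of batch 2 belonged to the 9 amino acid transporters, SLC38A2 for MUT vs EV and SLC7A5 for WT vs EV. In batch 2, 6 were higher and 2 lower in MUT than in EV (24.1% and 23.8% of all genes). There 7 were higher and 1 lower in WT than in EV (19.6% and 19.3%), and 1 was higher and 6 were lower in MUT than in WT (16.8% and 16.4%).

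SLC7A5, the large neutral amino acid transporter LAT1 (chr16:87830023-87869488), had 18.1, 18.7 and 17.1 CPM in MUT, 37.1, 39.2 and 34.1 CPM in WT and 10.0, 10.3 and 10.6 CPM in EV libraries of batch 2. The media did not overlap, and the log2 fold changes were 0.80 ± 0.07 against EV and -1.03 ± 0.06 against WT for MUT, and 1.83 ± 0.06 for WT vs EV (adjusted p = 3.1e-08, 1.3e-09 and 1.1e-12). In the 20 libraries of batches 1 and 3 it ran from 6.35 to 10.1 CPM, with log2 fold changes of WT vs EV of 0.06 in batch 1 and 0.05 in batch 3. Its partner in the membrane, SLC3A2, which also pairs with SLC7A11, was higher in WT than in EV in batch 2 (0.28 ± 0.04, adjusted p = 2.9e-05) and did not pass for MUT vs EV (-0.07 ± 0.04, adjusted p = 0.20).

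SLC7A11, which imports cystine, had 3.44, 3.34 and 3.99 CPM in MUT, 5.86, 6.30 and 5.81 CPM in WT and 2.02, 2.41 and 2.28 CPM in EV libraries of batch 2, without overlap. In batch 1 it had 2.20, 2.28, 2.71 and 2.59 CPM in MUT, 2.41, 2.32, 2.19 and 3.01 CPM in WT and 1.52, 2.38 and 2.79 CPM in EV libraries. In batch 3 it had 1.66, 1.59 and 1.21 CPM in MUT, 2.64, 1.95 and 1.73 CPM in WT and 1.76, 1.52 and 1.70 CPM in EV libraries, and only its lowest WT value fell within the range of EV. The pooled log2 fold change of WT vs EV was 0.63 ± 0.15 with an adjusted p of 0.0498, just inside the threshold, and 0.14, 1.42 and 0.34 in batches 1, 2 and 3, which differed (adjusted p = 0.00012). The call was lost on leaving out any of 20 of the 29 libraries, all 9 of batch 2 among them (adjusted p up to 0.16), and without batch 2 (0.75).

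SLC43A1, a carrier of large neutral amino acids, was the 1 gene that passed in both pooled comparisons with EV, which share the EV libraries. In batch 1 it had 5.92, 8.09, 7.28 and 6.45 CPM in MUT, 6.88, 8.24, 7.89 and 7.78 CPM in WT and 6.61, 7.20 and 5.04 CPM in EV libraries. In batch 2 it had 3.58, 3.55 and 3.13 CPM in MUT, 4.36, 4.19 and 4.36 CPM in WT and 2.46, 2.61 and 2.13 CPM in EV libraries, and in batch 3 4.72, 4.65 and 4.08 CPM in MUT, 3.65, 4.73 and 5.22 CPM in WT and 3.55, 3.88 and 3.50 CPM in EV libraries. The MUT libraries lay above EV in batches 2 and 3 and overlapped with it in batch 1, and the WT libraries lay above EV in batch 2 and overlapped with it in batches 1 and 3. Pooled, the log2 fold change of MUT over EV was 0.30 ± 0.09 (adjusted p = 0.043; batches 1, 2 and 3 alone 0.12, 0.52 and 0.30) and 0.47 ± 0.09 for WT vs EV (adjusted p = 0.015; 0.30, 0.84 and 0.33). The WT vs EV call held on leaving out each of the 29 libraries (adjusted p 0.0048 to 0.047) and was lost without batch 2 (log2 fold change 0.31, adjusted p = 0.22), and the MUT vs EV call was lost on leaving out any of 18 libraries (up to 0.11) and without batch 2 (0.54).

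SLC38A2, the sodium-coupled neutral amino acid transporter SNAT2 (chr12:46358189-46372867), was higher in MUT than in both other media in batch 2. It had 218, 202 and 210 CPM in MUT, 85.3, 100 and 87.7 CPM in WT and 46.3, 43.3 and 45.6 CPM in EV libraries of that batch. MUT was the highest medium and EV the lowest without overlap, with log2 fold changes of 2.22 ± 0.06 against EV and 1.21 ± 0.05 against WT for MUT, and 1.01 ± 0.06 for WT vs EV (adjusted p = 5.1e-14, 7.3e-11 and 7.0e-10). In batch 1 it had 195, 178, 180 and 183 CPM in MUT, 154, 127, 136 and 168 CPM in WT and 167, 171 and 189 CPM in EV libraries, and in batch 3 149, 147 and 130 CPM in MUT, 156, 145 and 133 CPM in WT and 157, 168 and 163 CPM in EV libraries. All MUT libraries lay above WT in batch 1, which DESeq2 on that batch called (log2 fold change 0.31, adjusted p = 0.0035) and edgeR did not. Both CEL media lay below EV in batch 3. The EV and WT libraries of batch 2 lay below every library of the other batches, and EV in batch 2 was lower than EV in batch 1 by a log2 difference of -1.96 ± 0.08.

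The remaining transporters differed less. SLC1A4, which carries alanine, serine and cysteine, had 84.4, 81.3 and 81.6 CPM in MUT, 89.3, 88.0 and 92.1 CPM in WT and 110, 113 and 114 CPM in EV libraries of batch 2. It was thus lower in both CEL media, by -0.44 ± 0.04 for MUT vs EV and -0.32 ± 0.04 for WT vs EV (adjusted p = 6.4e-08 and 3.7e-06). In batch 1 the MUT libraries of SLC1A4 lay above those of WT. SLC1A5, a glutamine carrier, was lower in MUT than in EV in batch 2 (-0.20 ± 0.06, adjusted p = 0.014) and did not pass for WT vs EV (-0.02 ± 0.06, adjusted p = 0.87). SLC7A1, a carrier of arginine and lysine, and SLC6A9, a glycine carrier, were higher in both CEL media than in EV in batch 2, by 0.18 ± 0.04 and 0.42 ± 0.13 for MUT vs EV and by 0.24 ± 0.04 and 0.59 ± 0.13 for WT vs EV. In batch 1 the MUT and WT libraries of SLC6A9 all lay below those of EV.

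The tRNA synthetases, which charge tRNAs with amino acids, differed little. In batch 2 SARS1 was higher and WARS1 lower in MUT than in EV, both were higher in WT than in EV, and WARS1 was lower in MUT than in WT, while AARS1 and GARS1 did not pass. WARS1, the tryptophan enzyme, had 102, 99.0 and 106 CPM in MUT, 138, 137 and 133 CPM in WT and 113, 115 and 110 CPM in EV libraries of batch 2, and no media overlapped. In batch 3 the MUT libraries of WARS1 lay above those of both other media. SARS1, the serine enzyme, had 133, 138 and 136 CPM in MUT, 145, 149 and 139 CPM in WT and 125, 120 and 123 CPM in EV libraries of batch 2. AARS1, the alanine enzyme, had 303 to 317 CPM in MUT, 310 to 316 CPM in WT and 305 to 323 CPM in EV libraries of that batch, which overlapped. GARS1, the glycine enzyme, had 54.2, 51.6 and 52.8 CPM in MUT, 54.0, 54.7 and 52.7 CPM in WT and 54.6, 47.3 and 50.8 CPM in EV libraries.

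**Figure D4:**
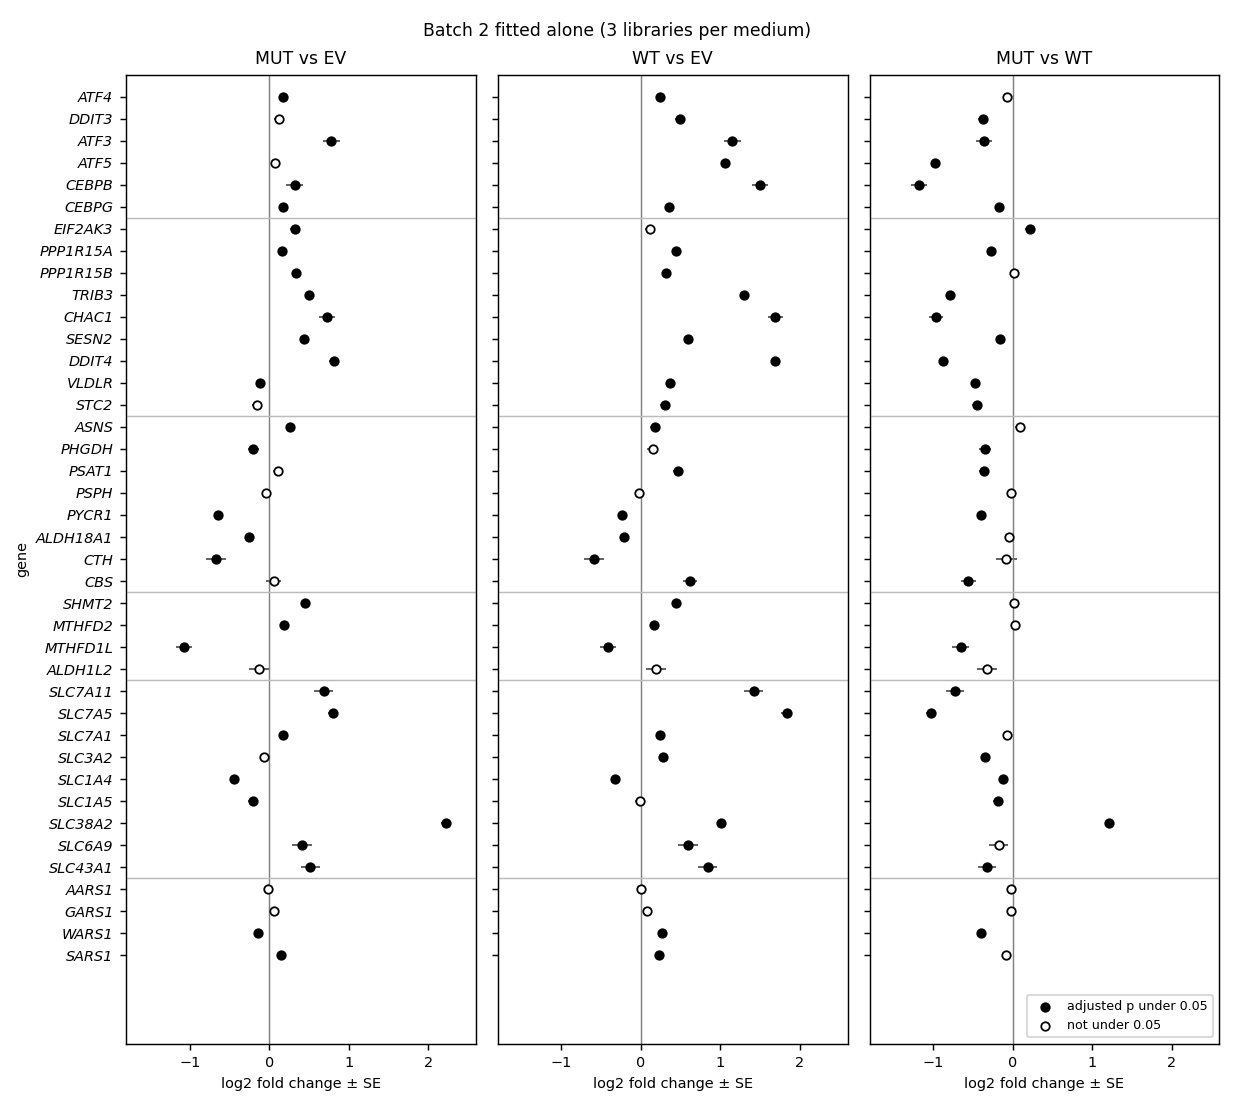
Log2 fold change ± SE of the 40 genes in batch 2 fitted alone (3 libraries per medium), for MUT vs EV, WT vs EV and MUT vs WT; filled points have an adjusted p under 0.05. Most points of WT vs EV lie right of 0 and most of MUT vs WT left of it, with SLC38A2 at 1.21 to the right of 0 for MUT vs WT, and MTHFD1L is the lowest point of MUT vs EV at -1.07.

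The genes were also counted in batch 2 alone by the motif in their promoter window, and a difference between these sets was not tested. The windows run from 250 bases before to 50 bases after the start, so genes counted as without the motif may hold it elsewhere. Of all genes, 24.1% were higher and 23.8% lower in MUT than in EV in that batch, and 19.6% and 19.3% in WT than in EV. Of the 12 genes with the motif, in batch 2, 6 were higher and 3 lower in MUT than in EV, and 7 were higher and 2 lower in WT than in EV, with medians of 0.12 and 0.21. Of the 23 genes with a window without the motif, in batch 2, 13 were higher and 5 lower in MUT than in EV, and 19 were higher and 2 lower in WT than in EV, with medians of 0.16 and 0.47. Between MUT and WT in batch 2, 0 genes with the motif were higher in MUT and 7 were lower, and 2 without it were higher and 15 lower, beside 16.8% and 16.4% of all genes. CHAC1, CEBPG, ATF3 and SLC1A4 all hold the motif, and in batch 2 the first 3 were higher and SLC1A4 lower in WT than in EV.

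Levels in EV medium also differed between batches. Across the EV libraries of the 3 batches 35 of the 40 genes differed, beside 66.9% of all genes (F test of edgeR's quasi-likelihood fit, Benjamini-Hochberg adjusted p under 0.05). The exceptions were ATF4, CEBPG, CHAC1, SLC1A4 and AARS1. In batch 2 compared with batch 1, the EV libraries were lower by a log2 difference of -1.96 for SLC38A2, -1.39 for SLC43A1, -1.14 for STC2, -1.04 for DDIT4, -0.96 for SLC6A9 and -0.92 for CBS, and higher by 1.07 for CEBPB and 0.81 for CTH. Between batches 3 and 1 DDIT4 differed most, with an EV log2 difference of -1.74.

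Other genes of the same biology were examined as lists. Of 24 further genes known as ATF4 or CHOP targets that were tested, 1 passed in the pooled comparisons, GOT1, a transaminase, which was higher in MUT than in EV (0.13 ± 0.04, adjusted p = 0.039), where 5.2% of all genes passed. In batch 2, 15 of the 24 were higher and 4 lower in MUT than in EV (24.1% and 23.8% of all genes), and 14 were higher and 5 lower in WT than in EV (19.6% and 19.3%). Between MUT and WT 4 were higher and 5 lower in batch 2 (16.8% and 16.4%), and 2 were higher and 2 lower in batch 3, where 1.22% of all genes passed. MTHFD1, the cytosolic counterpart of the mitochondrial folate enzymes, was lower in batch 2 in both MUT and WT than in EV (-0.74 and -0.68). SLC7A2, a carrier of cationic amino acids, was higher there in both (0.61 and 0.40), and KLHL24, a ubiquitin ligase adaptor, had 0.79 for MUT vs EV and 0.09 for WT vs EV.

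The ATF6 and IRE1 arms are the other branches of the unfolded protein response. Of their 16 genes 7 were higher in MUT than in EV pooled over batches, namely HSPA5, HYOU1, MANF, HERPUD1, PDIA4, SEL1L and DNAJB9, and none was lower, beside 2.95% of all genes called as higher. Without batch 2, 0 of all genes passed for MUT vs EV, so these calls and those of GOT1 and CARS2 were lost. The same held with voom quality weights and with 1 summed profile per batch and medium. HSPA5, the chaperone BiP, had a log2 fold change of 0.15 ± 0.03 for MUT vs EV (adjusted p = 0.021), with 0.21, 0.19 and 0.0062 in batches 1, 2 and 3. MANF, a secreted stress factor, was also higher in MUT than in WT (0.22 ± 0.04, adjusted p = 0.0017), with 0.18, 0.40 and 0.07 in batches 1, 2 and 3, and it was the 1 gene of this list that passed for MUT vs WT. For WT vs EV 0 of the 16 passed with edgeR and 6 had an unadjusted p under 0.05. Batch 1 alone gave 1 of the 16 higher in MUT than in EV (1.4% of all genes passed) and 10 with an unadjusted p under 0.05. For MUT vs WT it gave 1 higher (0.277% of all genes passed) and 12 with an unadjusted p under 0.05. Batch 3 alone gave 0 in both comparisons with edgeR, with 3 and 1 at an unadjusted p under 0.05. The share of all genes at an unadjusted p under 0.05 was not counted. In batch 2 MUT vs WT gave 5 higher and 6 lower genes in this list (16.8% and 16.4% of all genes), beside the 2 higher and 24 lower among the 40 genes of the PERK arm and amino acid supply. Whether the lists differ was not tested.

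Of the eIF2 machinery and its kinases, 0 of 15 genes passed in the pooled comparisons with edgeR, and 3 between MUT and EV, 2 between MUT and WT and 0 between WT and EV had an unadjusted p under 0.05. DNAJC3, an inhibitor of PERK, was nearest for MUT vs EV (0.16 ± 0.05, adjusted p = 0.054), and IMPACT, an inhibitor of the amino acid sensing kinase GCN2, had -0.92 in batch 2 and 0.27 in batch 1. Batch 1 alone gave 1 of the 15 higher in MUT than in EV, where 1.4% of all genes passed. Of 16 further cytosolic tRNA synthetases 0 passed pooled, with 1, 2 and 1 at an unadjusted p under 0.05. In batch 2, 3 of the 16 were higher (MARS1 0.42, CARS1 0.33 and TARS1 0.22) and 3 lower (FARSB -0.32 and EPRS1 -0.21 among them) in WT than in EV, beside 19.6% and 19.3% of all genes. For MUT vs EV 4 of the 16 were higher and 6 lower in batch 2, beside 24.1% and 23.8% of all genes. Of 17 mitochondrial tRNA synthetases CARS2 passed for MUT vs EV, as lower in MUT (-0.13 ± 0.04, adjusted p = 0.039), beside 5.2% of all genes. In batch 2, 2 of the 17 were higher and 7 lower in MUT than in EV, beside the same shares of all genes (24.1% and 23.8%).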

How the data were processed

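The 29 libraries were stranded mRNA libraries. The table deposited by the authors holds estimated counts per Ensembl gene, and fastp and kallisto are named per the submitters' processing notes, with versions, genome build and annotation not given in the sources used here. Genes were placed with GENCODE release 29 (GRCh38). The expected counts were rounded to whole numbers, entries without a gene symbol (2.69% of counts) were kept under their identifier, and genes with few counts were removed with filterByExpr of edgeR. Counts were scaled by TMM and fitted with the robust quasi-likelihood test of edgeR 4.0.16 (limma 3.58.1, R 4.3.3), with batch as a term over all 29 libraries, within each batch alone, and with a medium by batch interaction. DESeq2 1.42.0 was an alternative. P-values were adjusted by Benjamini-Hochberg over all genes tested, and an SE is that of the log2 fold change derived from the quasi-likelihood F statistic. CPM values use the TMM-scaled library totals, which ran from 26.2 M to 40.2 M before scaling. The procedure was tested on simulated data.

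The 40 genes and all lists were chosen with earlier results of these data known. Values of every library are given for genes that passed pooled and for ATF4, DDIT3, TRIB3, CHAC1 and EIF2AK3. For up to 3 more per group of genes, those with the smallest p of MUT vs EV in batch 2, the libraries of batch 2 are given. Of the other batches only some of their values are given. Further genes named for description were chosen after their values were seen. No pair of libraries of the same batch and medium agreed within sampling noise (33 pairs, chi-square per degree of freedom 2.83 to 18.1).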

Additional observations from a re-analysis of the deposited data

Results flagged for a closer look

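The difference between media depended on the batch for many of the genes, by the test of the difference itself. It varied between batches for 24 of the 40 genes for MUT vs EV (44% of all genes), for 24 for MUT vs WT (28.4%) and for 29 for WT vs EV (24.1%). For WT vs EV the adjusted p of this test was 4.3e-05 for ATF4, 4.7e-05 for DDIT3, 2.2e-10 for CEBPB and 7.5e-10 for ATF5 (edgeR quasi-likelihood F test). It was 6e-15 for TRIB3, 2.4e-10 for CHAC1, 1.5e-11 for DDIT4 and 5.5e-15 for SLC7A5. For MUT vs EV it was 3.2e-15 for SLC38A2, 0.02 for ASNS, 0.012 for EIF2AK3, 3.1e-07 for MTHFD1L and 1.5e-05 for PYCR1. In 80 checks, of the 40 genes in the 4 MUT and the 4 WT libraries of batch 1, no library stood far from the others of its medium. Groups of 3 libraries, which are all the others, were not examined.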

How the results depend on the processing

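The pooled count for MUT vs EV (3 genes) was 6 with DESeq2 (2139 of all genes), 8 without batch 3 (4744) and 1 without the filter on low counts (232), where the main model called 1106 of all genes. It was 0 with no batch term, with only the 2 media compared, with voom quality weights, with correlated libraries in voom (correlation 0.431), with 1 summed profile per batch and medium, and without batch 2, where at most 20 of all genes passed. The pooled count for MUT vs WT (0 genes, 188 of all genes) was 1 with DESeq2 (535), without batch 1 (104) and without batch 3 (1552). The pooled count for WT vs EV (2 genes, 67 of all genes) was 1 with voom quality weights (94). It was also 1 with edgeR without robust moderation (68), which was chosen after seeing the data. It was 0 with no batch term (0 of all genes), correlated libraries (11), summed profiles (0) and without batch 2 (51). In batch 1 (0 genes) the contrast in the fit of all 29 libraries gave 3 between MUT and EV, 4 between MUT and WT and 1 between WT and EV. Of all genes 2258, 1106 and 214 passed there, against 294, 58 and 3 in the main fit of that batch. DESeq2 on batch 1 gave 3 and 3 for MUT vs EV and MUT vs WT (1932 and 877 of all genes). Total library size gave 1 for MUT vs EV in batch 1 (569 of all genes). In batch 3 (0 genes) MUT vs WT gave 2 in the fit of all libraries and 1 with DESeq2. With batches 1 and 3 only, also chosen after seeing the data, the difference between batches was called for 2, 0 and 0 of the 40 genes, beside 13.3%, 3.28% and 0% of all genes. The cause of these changes was not tested.

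The replicate numbers do not pair the libraries: of 28 pairs with the same number 5 correlated above 0.1 (-0.073 to 0.15). With the replicate number as a block 0 of all genes passed pooled between MUT and EV, GOT1, CARS2 and the ATF6 and IRE1 genes among those lost. The pooled counts of the 40 under the block were 0 between MUT and EV, 1 between MUT and WT and 1 between WT and EV. Of all genes 0, 54 and 31 passed there. The counts of batch 1 under the block were 0, 1 and 2 (131, 24 and 99 of all genes), and those of batch 2 were 30, 27 and 33.

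Leaving out each library in turn gave 0 to 4, 0 to 1 and 1 to 2 genes pooled in the same order of comparisons, 0 to 2, 0 to 1 and 0 to 0 in batch 1, 26 to 30, 21 to 26 and 31 to 33 in batch 2, and 0 to 1, 0 to 2 and 0 to 0 in batch 3. The pooled MUT vs EV count was 0 without any 1 of the MUT or EV libraries of batch 2 (5 to 70 of all genes). It was 1 without WT library 3 (769 of all genes) or MUT library 2 or 3 (305 and 661) of batch 1. The pooled MUT vs WT count was 1 without WT library 4 of batch 1 (150 of all genes). In batch 1 the count changed without WT library 4 or MUT library 4, and in batch 3 without WT library 1 or 3 or MUT library 1. Without MUT library 4, 3018 of all genes passed between MUT and EV in batch 1, against 294 in its main fit. Of 10529 values of single genes under the alternatives, 136 lost and 58 gained a call, and 0 reversed.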
